A study of Mus musculus with 6 samples.

Results

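The genes of the proteasome, the protease that degrades ubiquitin-tagged proteins, were examined in activated mouse CD4 T cells. Of 24047 rows of the deposited count table, 50 had a symbol made of Psm, a letter from a to g and a number, and 48 of these had 10 or more counts in at least 3 libraries. The 2 left out were Psma8, a testis form of an alpha subunit with 2, 1 and 1 counts in the libraries labelled Srsf1-cKO and 1 count in each WT library, and Psmb11, the thymus-specific catalytic subunit. Psmb11 had 0 counts in all 6 libraries, which allows at most 3 counts, or 0.282 to 0.396 CPM (gene counts scaled to a common library size, with TMM factors), per library, by counting error only. The name pattern also takes in Psmc3ip, a factor of homologous recombination that is no proteasome subunit, so counts are given for 48 genes and for the 47 others.

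The mutant mice are labelled Srsf1-flox/flox dLck.Cre (Srsf1-cKO), with both alleles of the splicing factor Srsf1 floxed and a Cre transgene of the distal Lck promoter, which acts in T cells. The other mice are labelled WT, and the labels do not say whether they carried Cre or floxed alleles. All mice were 7 weeks old, of a strain labelled B6.129, and each genotype gave 3 libraries, from 3 mice per the design text. Splenic CD4+CD62L+ T cells of both genotypes were cultured for 72 h with anti-CD3 (0.5 µg/mL) and anti-CD28 (1 µg/mL). Restimulation for 4 h followed, with PMA (100 ng/mL), a phorbol ester, and ionomycin (1 µM), a calcium ionophore, which bypass the receptor at the cell surface.

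The proteasome is a barrel, the 20S core, capped by regulators such as the 19S particle. The core stacks rings of alpha subunits, which form the gate, on rings of beta subunits, some of which cut peptide bonds. The 19S particle binds ubiquitin chains, removes them with its lid and unfolds the substrate with a ring of ATPases in its base. Interferon gamma, which activated T cells make, induces immunoproteasome subunits that replace the constitutive catalytic ones and the PA28 activator, and the peptides so cut feed class I presentation.

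The libraries held 8573465 to 10184268 gene counts in the Srsf1-cKO group and 7781283 to 9650828 in the WT group. The level of Srsf1 itself goes against the knockout label. It had 4839, 4911 and 5022 counts in the libraries labelled Srsf1-cKO, against 4889, 3520 and 3679 in WT libraries, or 514 ± 39.1 CPM against 495 ± 42.1 CPM (SD, n = 3 each). Its log2 fold change was 0.06 (95% interval -0.23 to 0.34; edgeR adjusted p = 0.78). A count over the whole gene does not show whether the floxed part was removed, so Srsf1-cKO below means the libraries labelled so. Cd4 stood at 355 to 455 CPM in Srsf1-cKO and 432 to 526 CPM in WT libraries, and Cd8a at 0.108 to 1.22 CPM and 0.332 to 0.520 CPM. Summed markers of B cells, of myeloid cells, and of dendritic cells with class II were higher in Srsf1-cKO libraries, but not every single marker was. The 5 B cell markers summed to 9.11 to 25.2 CPM in Srsf1-cKO and 1.32 to 8.32 CPM in WT libraries, the 8 myeloid markers (1 at 0 in all libraries) to 15.99 to 40.9 CPM and 5.15 to 7.96 CPM, and the 7 dendritic cell and class II markers to 117 to 150 CPM and 61.9 to 95.5 CPM. Of the 4 dendritic cell and class II markers tested, 3 had a positive log2 fold change and H2-Ab1 was at -0.29. Cd74 was the most abundant of them, with means of 81.7 CPM in Srsf1-cKO and 45.1 CPM in WT libraries. The 5 NK cell markers summed to 0.864 to 3.19 CPM in Srsf1-cKO and 0.221 to 1.04 CPM in WT libraries, which overlap, with Ncr1 at 0 in all. Cd8a and Cd8b1 summed to 16.7 to 22.8 CPM in Srsf1-cKO and 24.6 to 42.5 CPM in WT libraries. The 15 heat shock genes summed to 8445 to 9285 CPM in Srsf1-cKO and 9958 to 11207 CPM in WT libraries. Of the 14 tested, 5 were called lower (edgeR adjusted p under 0.05), beside 9.5% of all genes. Hspa1a had 1.30, 0.893 and 1.13 CPM in Srsf1-cKO libraries, against 154, 126 and 4.49 CPM in WT libraries, and its near-identical copy Hspa1b 2.70, 2.12 and 1.502 CPM in Srsf1-cKO libraries, against 226, 206 and 12.01 CPM in WT libraries. WT replicates 1 and 2 were far above WT replicate 3 in both genes, which may share reads. The part of these in the results below was not tested, and in these bulk libraries fewer cells of a type and less RNA per cell cannot be told apart.

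Most proteasome genes had a small positive log2 fold change in Srsf1-cKO libraries, but none of the 47 passed the test. Changes are given as Srsf1-cKO over WT, from edgeR's quasi-likelihood test over 10454 genes, and a gene is called at an adjusted p under 0.05. The 1 called member of 48 was Psmc3ip, which was higher, beside 18.4% of all genes tested that were called in either direction, 8.9% higher and 9.5% lower. Of the 47 others, 0 were called by edgeR, 0 by limma-voom (18.1% of all genes) and 2 by DESeq2 (Psmb4 higher and Psme4 lower; 21.9% of all genes), and 22 had an unadjusted edgeR p under 0.05 (34.9% of all genes). limma on log2(FPKM + 1) called 13 higher (12.3% of all genes) and limma-voom with sample weights 18 higher and 4 lower (41.7% in either direction). The 22 were 20 higher and 2 lower, while 17.2% and 17.7% of all genes were higher and lower at that threshold.

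The direction was shared by most members. A positive log2 fold change was found for 41 of the 48 genes, and for 50.5% of all genes. The members' median log2 fold change was 0.31 (interquartile range 0.16 to 0.38), or 1.24-fold, against 0.01 for all genes. CPM of every Srsf1-cKO library lay above every WT library for 28 of the 48 genes (58.3%; 19.9% of all genes) and below every WT library for 3 (Psmb1, Psme1 and Psme4; 19.5% of all genes). In the authors' FPKM values, which scale fragments by transcript length and library depth, 33 members lay above and 0 below, beside 25.1% and 15.2% of the genes tested. With CPM scaled by library size alone, 33 lay above and 1 below, beside 25.5% and 15.1%. That scaling moved the median of all genes by 0.10 on the log2 scale, and the members' median minus that of all genes was 0.30 with either scaling.

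**Figure D1:**
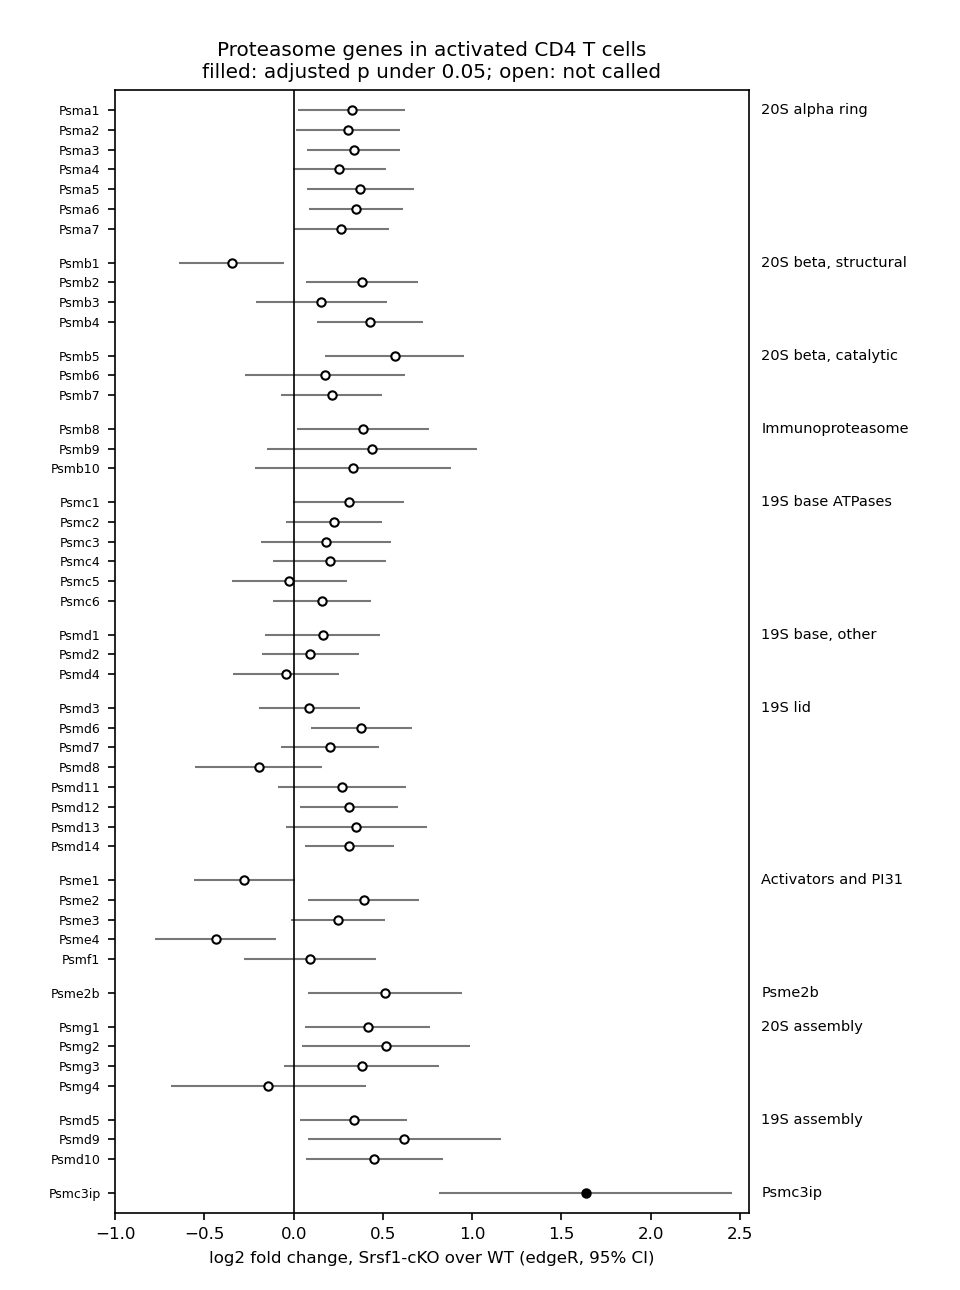
Log2 fold change of each of the 48 proteasome genes, Srsf1-cKO over WT, with its 95% interval from edgeR, grouped by role down the page. Of the 48 points 41 lie right of 0 and 7 left of it, and the 1 filled point, Psmc3ip, is the only one with an adjusted p under 0.05.

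The members together took 0.651%, 0.683% and 0.750% of the gene counts in Srsf1-cKO libraries, against 0.567%, 0.561% and 0.585% in WT libraries. Their summed level was 6415, 6531 and 7168 CPM in Srsf1-cKO and 6048, 5712 and 6009 CPM in WT libraries, a ratio of means of 1.13. Srsf1-cKO replicate 3 was the highest library for 29 of the 48 genes, and WT replicate 2 the lowest for 22. With Srsf1-cKO replicate 3 left out, the median log2 fold change was 0.21, against 0.31 with all libraries, and 30 genes were above WT in both libraries that remained, beside 27% of all genes. In Srsf1-cKO replicates 1 and 2 the median of the 48 genes stood 0.09 log2 units above the gene's mean over the 6 libraries. In replicate 3 it stood 0.21 above, while WT medians were 0.10 to 0.18 below.

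**Figure D2:**
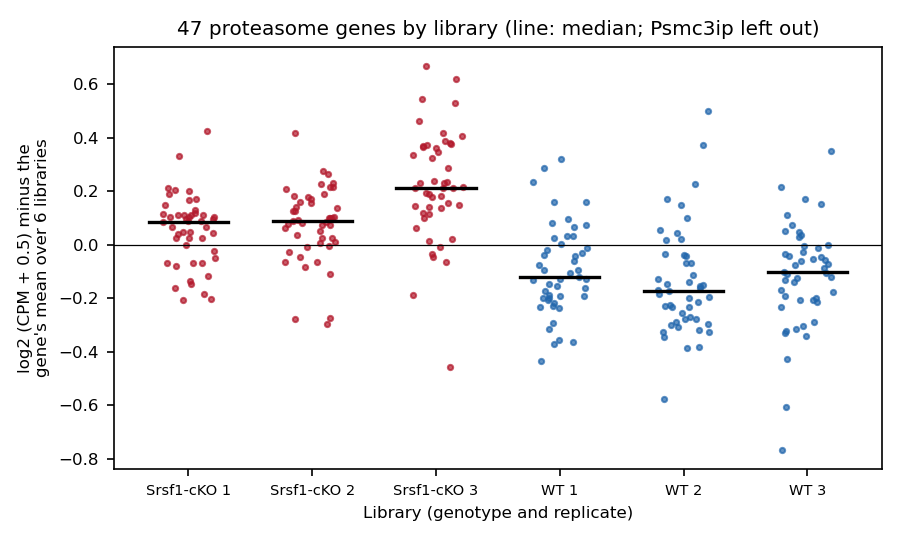
Each point is 1 of the 47 proteasome genes (Psmc3ip left out) in 1 library, as log2 (CPM + 0.5) minus that gene's mean over the 6 libraries, and black lines are medians. The 3 Srsf1-cKO medians (0.09, 0.09 and 0.21) lie above 0 and the 3 WT medians (-0.12, -0.17 and -0.10) below it, and the points of every library overlap those of the others.

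All 7 alpha ring subunits, Psma1 to Psma7, lay above WT in each Srsf1-cKO library, as 19.9% of all genes tested did. Their log2 fold changes were 0.26 to 0.37 and their edgeR adjusted p 0.0663 to 0.151, so that 0 of 7 were called. Psma6, an alpha subunit with a narrow spread, had 256, 259 and 289 CPM in Srsf1-cKO libraries, against 206, 204 and 219.7 CPM in WT libraries. Its lowest Srsf1-cKO library thus lay above its highest WT library. The log2 fold change was 0.35 ± 0.12 (SE; edgeR adjusted p = 0.0663). Psma3 had 127, 119 and 129 CPM in Srsf1-cKO libraries, against 94.5, 99.2 and 103 CPM in WT libraries. The summed level of the ring was 1161 ± 83.8 CPM in Srsf1-cKO and 933 ± 8.59 CPM in WT libraries (SD, n = 3 each), 1.24-fold.

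The structural beta subunits had log2 fold changes of both signs, and 0 of 4 were called. Psmb4, a structural beta subunit, had 154, 173 and 194 CPM in Srsf1-cKO libraries, against 135, 133 and 120.1 CPM in WT libraries, with no overlap (log2 fold change 0.43 ± 0.13; edgeR adjusted p = 0.0512). Psmb1, another structural subunit of the ring, lay the other way, at 218, 207 and 245 CPM in Srsf1-cKO libraries, against 313, 278 and 260.1 CPM in WT libraries. Its groups did not overlap in CPM, and the log2 fold change was -0.35 ± 0.13 (edgeR adjusted p = 0.0922). The FPKM ratio of Psmb4 to Psmb1, a pair chosen after its values were seen, was 0.781, 0.934 and 0.868 in Srsf1-cKO and 0.481, 0.526 and 0.514 in WT libraries. Psmb2 had a log2 fold change of 0.38 and Psmb3 of 0.16.

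The constitutive catalytic subunits and the immunoproteasome subunits that replace them were set side by side. Psmb5 carries the chymotrypsin-like site and is replaced by Psmb8. Psmb5 had 19.99, 17.6 and 20.2 CPM in Srsf1-cKO libraries, against 14.5, 11.97 and 12.5 CPM in WT libraries, with no overlap. In the count fit its log2 fold change of 0.57 ± 0.17 was the largest of the core subunits. Its edgeR adjusted p of 0.0502 was just outside the threshold. On log2(FPKM + 1) its log2 fold change was 0.48, below Psmb9 at 0.60 and Psmb4 at 0.52. The adjusted p of Psmb5 was 0.0480 with edgeR and upper-quartile scaling and 0.0367 with limma on log2(FPKM + 1). It was 0.0566 with DESeq2, 0.0791 with edgeR and no filter, and 0.0929 to 0.140 with edgeR and 1 library left out. The counts of Psmb5 imply a length of only 281 bases, set against its FPKM, where the annotated transcript has 899, and a processed pseudogene, Gm3375, matches it over 796 bases, so its counts may hold only part of its reads.

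Psmb8 had 222, 223 and 324 CPM in Srsf1-cKO libraries, against 194, 202 and 193 CPM in WT libraries. Replicate 3 stood above the other Srsf1-cKO libraries, and the log2 fold change was 0.39 ± 0.16 (edgeR adjusted p = 0.129), or 0.18 without replicate 3. Psmb6, which carries the caspase-like site and is replaced by Psmb9, had 67.9, 74.8 and 107 CPM in Srsf1-cKO libraries, against 73.1, 62.2 and 85.8 CPM in WT libraries, so the groups overlapped (log2 fold change 0.17 ± 0.20; adjusted p = 0.563; -0.05 without Srsf1-cKO replicate 3). Psmb9 had 64.7, 63.6 and 72.1 CPM in Srsf1-cKO libraries, against 43.0, 72.3 and 32.6 CPM in WT libraries. Its WT libraries spread more than 2-fold, WT replicate 2 was the highest of all 6, and the log2 fold change was 0.44 ± 0.26 (edgeR adjusted p = 0.260). Without WT replicate 2 it was 0.81 with an edgeR adjusted p of 0.0215, without WT replicate 1 it was 0.33 (adjusted p = 0.543) and without WT replicate 3 it was 0.20 (adjusted p = 0.547). Psmb7, which carries the trypsin-like site, had 142.4, 145 and 161 CPM in Srsf1-cKO and 141.6, 124 and 121 CPM in WT libraries, so the groups just failed to overlap (log2 fold change 0.21 ± 0.12; edgeR adjusted p = 0.257). Its replacement Psmb10 had 18.04, 19.6 and 31.0 CPM in Srsf1-cKO and 14.7, 20.7 and 19.3 CPM in WT libraries (log2 fold change 0.33 ± 0.24; edgeR adjusted p = 0.359). Without Srsf1-cKO replicate 3 it was 0.05 (edgeR adjusted p = 0.879).

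**Figure D3:**
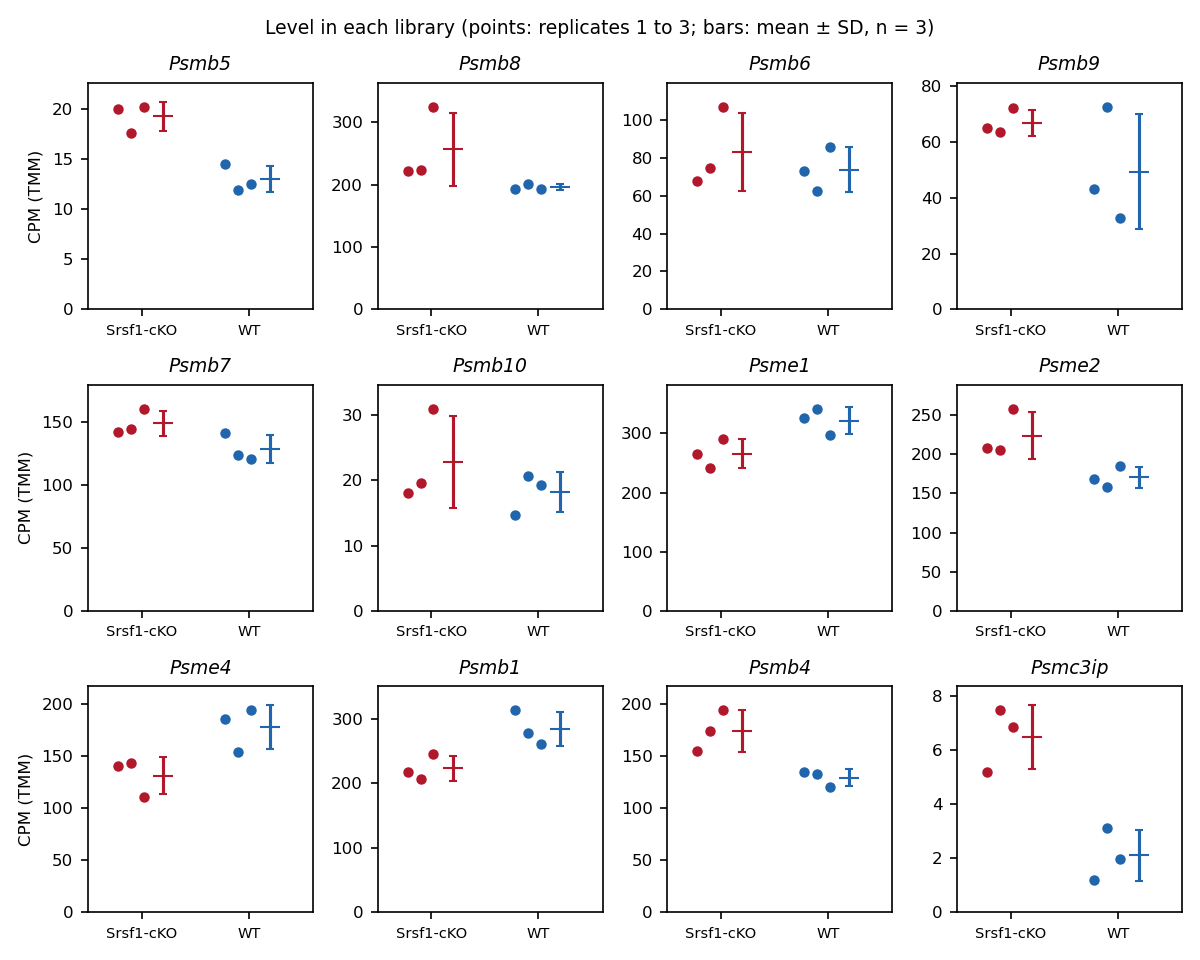
CPM (TMM-scaled, axes from 0) of 12 members in each library, with Srsf1-cKO in red and WT in blue and bars for mean ± SD (n = 3). Psmb5, Psmb8, Psme2, Psmb4 and Psmc3ip have every Srsf1-cKO point above every WT point, Psme1, Psme4 and Psmb1 every point below, Psmb7 is separated by less than its symbols' width, and Psmb6, Psmb9 and Psmb10 overlap.

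The exchange of catalytic subunits, the mark of immunoproteasome formation, concerns proteins, which were not measured. Only the RNA was read, as a ratio of replacing to constitutive subunit within a library. The FPKM ratio Psmb8 to Psmb5 was 2.69 ± 0.447 in Srsf1-cKO and 2.74 ± 0.477 in WT libraries (SD, n = 3 each). That of Psmb9 to Psmb6 was 1.03 ± 0.176 in Srsf1-cKO and 0.884 ± 0.496 in WT libraries, and that of Psmb10 to Psmb7 0.0984 ± 0.0215 in Srsf1-cKO and 0.0944 ± 0.0210 in WT libraries. All 3 ratios overlapped between the genotypes. From the counts, the log2 ratios differed by -0.21 (exact two-sided permutation p = 0.3), 0.36 (exact p = 0.6) and 0.09 (exact p = 0.9), Srsf1-cKO minus WT. Adjusted over the 3 pairs each exact p was 0.9, and 0.1 is the smallest that 3 against 3 libraries allow.

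**Figure D4:**
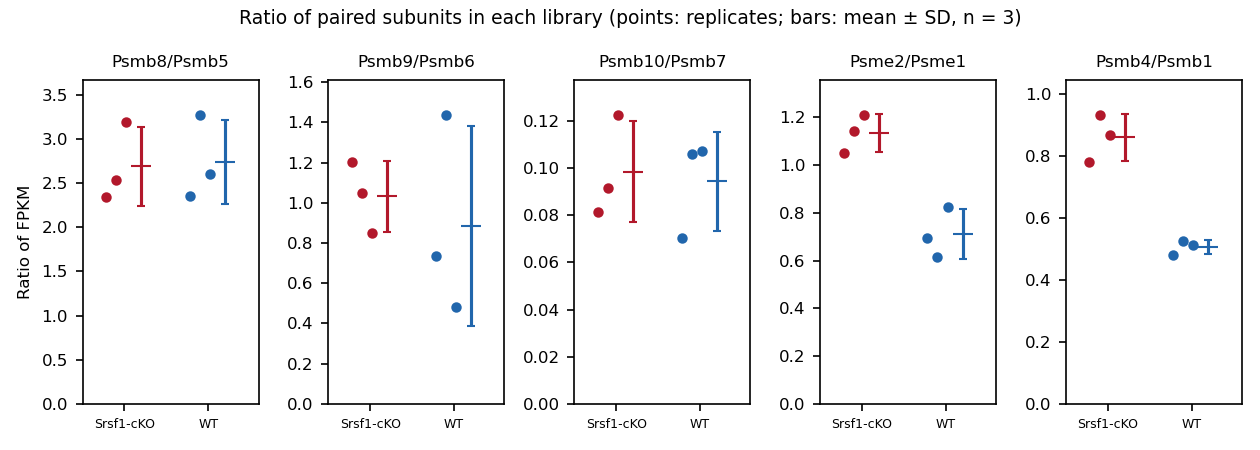
FPKM ratios of paired subunits in each library (axes from 0; red Srsf1-cKO, blue WT; bars mean ± SD, n = 3). The 3 immunoproteasome pairs overlap between genotypes, and Psme2 to Psme1 (1.05 to 1.21 against 0.615 to 0.824) and Psmb4 to Psmb1 (0.781 to 0.934 against 0.481 to 0.526), both chosen after their values were seen, do not.

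Of 17 subunits of the 19S particle, 14 had a positive log2 fold change, 7 lay above WT in each Srsf1-cKO library and 0 were called (median log2 fold change 0.20). Counts above WT here and below stand beside 19.9% of all genes, and positive log2 fold changes beside 50.5%. The 17 core and immunoproteasome subunits had 16 positive, 12 above WT and a median of 0.33, and the difference between these 2 groups was not tested. Among the 6 ATPases, Psmc1 to Psmc6, log2 fold changes ran from -0.03 (Psmc5) to 0.31 (Psmc1), and 2 lay above WT. Of the 3 other base subunits, Psmd1 and Psmd2, the scaffolds, and Psmd4, a ubiquitin receptor, all overlapped between genotypes (0.16, 0.09 and -0.04). The lid held 5 of 8 above WT. Psmd6 had 110.2, 119 and 119.7 CPM in Srsf1-cKO and 87.0, 83.0 and 98.7 CPM in WT libraries (log2 fold change 0.38; edgeR adjusted p = 0.0652). Psmd14, the deubiquitinase of the lid, had 248, 267 and 257 CPM in Srsf1-cKO libraries, against 211, 205 and 205 CPM in WT libraries (log2 fold change 0.31; edgeR adjusted p = 0.0802). Psmd8 of the lid was the exception in sign, at -0.19, with overlapping groups.

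The assembly chaperones had median log2 fold changes of 0.45 (19S) and 0.40 (20S), and 0 of 7 were called. The 19S chaperones Psmd5, Psmd9 and Psmd10 all lay above WT in each Srsf1-cKO library, beside 19.9% of all genes. Their log2 fold changes were 0.34, 0.62 and 0.45 (edgeR adjusted p = 0.110, 0.102 and 0.0953). Psmd9 had 16.5, 17.2 and 24.97 CPM in Srsf1-cKO libraries, against 12.05, 10.3 and 15.97 CPM in WT libraries. It had the second highest log2 fold change of the 48, and its exons share 1849 bases with the lincRNA Gm26745 on the other strand. Of the 20S chaperones, Psmg1 and Psmg3 lay above WT, Psmg2 (log2 fold change 0.52) overlapped through Srsf1-cKO replicate 3, and Psmg4 was at -0.14.

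The activators that dock on the core in place of the 19S particle had log2 fold changes of both signs, and with the inhibitor 0 of 5 were called. Psme1 and Psme2 encode the alpha and beta subunits of PA28, which assemble into 1 ring and are both interferon-inducible. Psme2 had 208, 205 and 258 CPM in Srsf1-cKO libraries, against 169, 158 and 185 CPM in WT libraries (log2 fold change 0.39 ± 0.14; edgeR adjusted p = 0.0777). Psme1 had 265, 241 and 290.2 CPM in Srsf1-cKO libraries, against 326, 342 and 297 CPM in WT libraries (log2 fold change -0.28 ± 0.13; edgeR adjusted p = 0.154). In CPM neither gene's groups overlapped, and they lay in opposite directions. The FPKM ratio of Psme2 to Psme1 was 1.05, 1.14 and 1.21 in Srsf1-cKO libraries, against 0.693, 0.615 and 0.824 in WT libraries. The log2 count ratio differed by 0.66, with an exact permutation p of 0.1, the smallest possible, for a pair chosen after its values were seen. Psme2b, nearly identical to Psme2 over 794 bases, had a log2 fold change of 0.51 (edgeR adjusted p = 0.0932), and reads of the pair may be shared.

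Psme4 encodes PA200, a nuclear activator. It had 139.9, 143 and 110.4 CPM in Srsf1-cKO libraries, against 185, 154 and 194 CPM in WT libraries, the lowest log2 fold change of the 48 at -0.44 ± 0.15 (edgeR adjusted p = 0.0730). It was called lower by DESeq2, with an adjusted p of 0.0497. Psme3, the nuclear activator PA28 gamma, had 522, 528 and 472 CPM in Srsf1-cKO libraries, against 417, 409 and 454 CPM in WT libraries (log2 fold change 0.25; edgeR adjusted p = 0.165). Psmf1, the inhibitor PI31, overlapped at 35.9, 39.8 and 41.4 CPM in Srsf1-cKO and 36.8, 42.4 and 30.8 CPM in WT libraries (log2 fold change 0.09; adjusted p = 0.724).

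Psmc3ip, in contrast, rose. It had 48, 67 and 73 counts in Srsf1-cKO libraries, against 11, 24 and 15 in WT libraries, or 6.51 ± 1.18 CPM against 2.11 ± 0.959 CPM (SD, n = 3 each). The groups did not overlap, and the log2 fold change was 1.64 ± 0.36 (3.11-fold; edgeR adjusted p = 0.0193). Its exons share 385 bases with Mlx on the other strand, which was at -0.26 (edgeR adjusted p = 0.197), so reads of Mlx and Psmc3ip cannot be told apart where counting ignored strand. Leaving out Srsf1-cKO replicate 2 gave an adjusted p of 0.0863, and leaving out WT replicate 1 gave 0.0840. The log2 fold changes ranged from 1.33 to 2.03 with 1 library left out.

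Per transcript length, PA28 and core genes were the most abundant. Mean FPKM over the 6 libraries was 262 for Psme1, 238 for Psme2, 213 for Psmb1, 209.9 for Psma6, 200.3 for Psma2 and 155 for Psmb8. Psme2 and Psme1 changed order between genotypes, with Psme2 at 279.8 ± 38.1 and Psme1 at 246 ± 19.4 FPKM in Srsf1-cKO libraries, and Psme2 at 196 ± 14.0 and Psme1 at 278 ± 23.7 FPKM in WT libraries. The lowest were Psmf1 at 7.98, Psmd9 at 4.73 and Psmc3ip at 3.89 FPKM. The members' median was 69.3 FPKM, against 10.7 for the 9608 rows with a mean of at least 1, and 45 of the 48 lay above that.

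**Figure D5:**
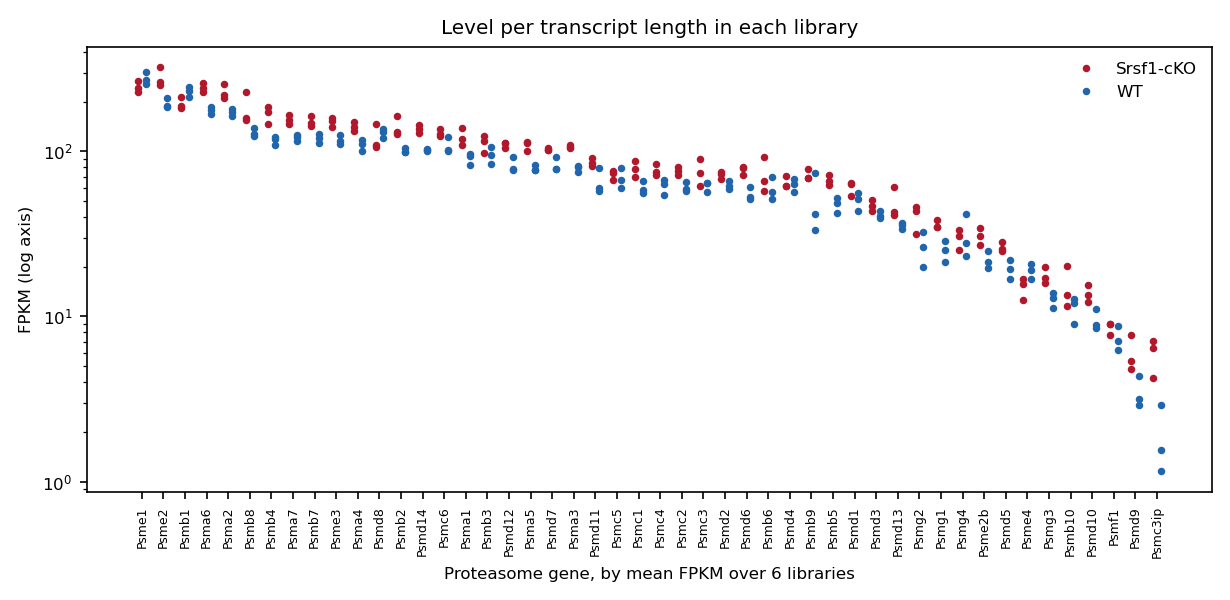
FPKM (log axis) of the 48 members in each library (red Srsf1-cKO, blue WT), ordered by mean over the 6 libraries. Levels run from 262 for Psme1 to 3.89 for Psmc3ip. In 33 of the 48 genes every Srsf1-cKO point lies above every WT point, beside 25.1% of the genes tested.

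Genes that work with the proteasome were counted from lists chosen with earlier results of these data known. Their counts stand beside 18.4% of all genes called in either direction, and a share near that is no result about a list. Of 14 partners whose names lie outside the pattern, 2 rose and 0 fell. Usp14, a deubiquitinase of the 19S particle, had 252, 232 and 213 CPM in Srsf1-cKO libraries, against 155, 169 and 172 CPM in WT libraries (log2 fold change 0.49; edgeR adjusted p = 0.0274). Ipo9, an importin that carries proteasomes into the nucleus, had 103, 101 and 84.1 CPM in Srsf1-cKO libraries, against 72.7, 61.3 and 72.6 CPM in WT libraries (0.48; edgeR adjusted p = 0.0462, or 0.0573 with no filter). Pomp, the 20S maturation factor, lay above WT at 0.28 (edgeR adjusted p = 0.162). Ube3a, the most abundant partner, was at -0.06 with TMM scaling and 0.04 with library-size scaling.

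Of 20 ubiquitin genes, shuttle factors and related genes, 1 rose and 3 fell. Rps27a, the most abundant gene of the list, encodes ubiquitin fused to a ribosomal protein and fell. It had 924, 841 and 872 CPM in Srsf1-cKO and 1409, 1359 and 1148 CPM in WT libraries (log2 fold change -0.57; edgeR adjusted p = 0.0190). Sqstm1, the p62 autophagy receptor, fell at -0.74 (edgeR adjusted p = 0.0310). Rps27a has pseudogene copies, with which its reads may be shared.

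Of 13 tested regulators of proteasome gene transcription, 0 rose and 2 fell. Nfe2l2 had 90.1, 67.3 and 67.8 CPM in Srsf1-cKO and 115, 119 and 95.4 CPM in WT libraries (-0.55; edgeR adjusted p = 0.0446), and Maff, a small partner of these factors, 34.4, 26.8 and 26.4 CPM in Srsf1-cKO and 71.9, 63.2 and 37.5 CPM in WT libraries (-0.98; edgeR adjusted p = 0.0271). The call of Nfe2l2 was lost with library-size scaling (adjusted p = 0.0724). Nfe2l1, whose protein drives proteasome genes when the protease is impaired, was at -0.24 (edgeR adjusted p = 0.218). Stat3, the most abundant of this list, was at -0.13.

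Of 13 interferon regulators, 1 rose and 2 fell. Ifng, the cytokine that induces the immunoproteasome, rose, at 55.8, 55.7 and 107 CPM in Srsf1-cKO libraries and 1.44, 3.90 and 11.1 CPM in WT libraries (log2 fold change 3.76 ± 0.58; edgeR adjusted p = 0.00761). Of the 13, 4 had a positive log2 fold change. Irf2 was at -0.67 (edgeR adjusted p = 0.0158) and Irf8 at -0.48 (0.0452, but 0.0849 with library-size scaling), and both fell. Irf1 was at -0.50 (edgeR adjusted p = 0.0866) and Jak2, the most abundant of the list, at -0.48 (0.140).

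Of 17 genes of class I presentation, 0 rose and 2 fell. Tap1, the peptide transporter that shares a divergent start with Psmb9, had 250.03, 213 and 228 CPM in Srsf1-cKO and 289, 458 and 315 CPM in WT libraries (log2 fold change -0.62; edgeR adjusted p = 0.0453, or 0.0810 with library-size scaling). The log2 fold change of Psmb9, 0.44, had the opposite sign, but its groups overlapped and it was not called (edgeR adjusted p = 0.260). Among WT libraries both genes were highest in WT replicate 2. Exons of the 2 neighbours share 212 bases. The FPKM ratio of Psmb9 to Tap1, chosen after its values were seen, was 1.19 ± 0.12 in Srsf1-cKO and 0.559 ± 0.113 in WT libraries. Npepps, a cytosolic aminopeptidase, fell at -0.84 (edgeR adjusted p = 0.0115), and B2m, the light chain of class I and the most abundant gene of the list, was at 0.10.

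Promoter windows of 250 bases before to 50 after the start site were taken from RefSeq (GRCm38.p6) and held 41 of the 48 members and 27025 genes in all. Letters were searched on both strands. The shares of all genes below are of the 27025 genes, which were not limited to those tested for a change. TGACNNNGC, the core bound by the Nfe2l1 and Nfe2l2 proteins, was in 6 members (14.6%, against 14.0% of all genes). CCAAT was in 14 (34.1% against 41.1%), the interferon-stimulated response element core (GAAA, any 2 bases, GAAA) in 5 (12.2% against 3.99%), and the site of nuclear respiratory factor 1 (GCGCA, any 1 base, GCGC), a different factor from Nfe2l1, in 7 (17.1% against 5.19%). A positive log2 fold change was seen in 5 of the 6, 13 of the 14, 2 of the 5 and 6 of the 7, beside 41 of all 48 members. The windows below are those of Psmb5 (chr14:54617946-54618245, minus strand), Psmd9 (chr5:123227940-123228239, plus strand) and Psme4 (chr11:30771525-30771824, plus strand), each with TGACNNNGC or its reverse complement in capitals, and Psme1 (chr14:55578244-55578543, plus strand) with the reverse complement of the interferon core in capitals. They are shown because Psmb5, Psmd9 and Psme4 share 1 motif and lay on opposite sides of 0. Psme1 is shown because it has an interferon core and was lower in CPM. The Psmd9 window also holds an interferon core, at bases 92 to 101, left in lower case. Psmd9 had a positive log2 fold change of 0.62. All are printed 5′ to 3′ along the gene.
Psmb5: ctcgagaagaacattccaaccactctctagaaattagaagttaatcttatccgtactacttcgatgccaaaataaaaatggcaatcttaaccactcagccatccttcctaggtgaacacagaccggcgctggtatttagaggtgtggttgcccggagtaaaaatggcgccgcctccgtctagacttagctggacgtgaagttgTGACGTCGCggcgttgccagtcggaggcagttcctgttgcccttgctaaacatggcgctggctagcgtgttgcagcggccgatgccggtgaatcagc
Psmd9: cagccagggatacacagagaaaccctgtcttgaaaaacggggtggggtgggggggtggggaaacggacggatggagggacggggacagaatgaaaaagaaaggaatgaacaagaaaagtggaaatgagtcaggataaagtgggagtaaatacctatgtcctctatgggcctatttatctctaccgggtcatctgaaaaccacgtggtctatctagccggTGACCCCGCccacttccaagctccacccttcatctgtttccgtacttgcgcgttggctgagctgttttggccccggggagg
Psme4: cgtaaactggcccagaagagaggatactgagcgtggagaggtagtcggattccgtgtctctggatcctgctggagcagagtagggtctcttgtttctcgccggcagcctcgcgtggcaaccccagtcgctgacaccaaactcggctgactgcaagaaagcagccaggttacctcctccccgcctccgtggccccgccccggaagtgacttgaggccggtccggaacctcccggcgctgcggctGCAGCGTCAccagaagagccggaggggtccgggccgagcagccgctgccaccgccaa
Psme1: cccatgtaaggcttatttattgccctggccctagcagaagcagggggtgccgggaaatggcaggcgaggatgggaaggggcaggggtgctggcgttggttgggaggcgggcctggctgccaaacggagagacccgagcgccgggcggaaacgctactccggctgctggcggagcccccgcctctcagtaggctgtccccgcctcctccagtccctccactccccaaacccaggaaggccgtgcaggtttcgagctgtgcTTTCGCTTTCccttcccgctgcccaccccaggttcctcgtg
In Psmb5 the motif begins at base 204 of the window and in Psmd9 at base 220, both before the start site after base 250. In Psme4 it begins at base 244 and spans the start site, and in Psme1 at base 260, after it. Of the 6 members with TGACNNNGC, 5 had a positive log2 fold change, and of the 5 with the interferon core, 2 did. A match of letters is a description of the window and not a bound site.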

How the data were processed

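RNA was sequenced from 3 Srsf1-cKO and 3 WT libraries. The kit was stranded and reads were single-end of 75 bp, per the labels. The authors deposited whole-number counts per gene, not normalized, and FPKM values. The submitters' processing notes name STAR, Cufflinks and mm9, but give no counter, annotation or strand setting. Reads of the 19 members that match another gene over at least 75 bases at 95% identity, and of the 15 whose exons overlap another gene, may be shared.

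The count test was that of edgeR 4.0.16 under R 4.3.3 (filterByExpr, TMM scaling, two-sided quasi-likelihood test, genotype as the only term), with Benjamini-Hochberg adjustment over 10454 genes. The script was tested on simulated data. For FPKM, limma 3.58.1 was run on log2(FPKM + 1), a scale that understates the change of low genes, over genes reaching 1 in 3 or more libraries. Alternatives were DESeq2 1.42.0, limma-voom (also with sample weights), a replicate block, 3 other scalings (RLE, upper quartile, library size), other filters and thresholds, the table without Rn45s, and each library left out. Replicates of a group differed by more than sampling noise, and p-values set the genotype difference against the spread between these libraries. Genes were named if called, in a catalytic pair, among the activators, at the extremes of fold change or FPKM, or called or most abundant in a related list, of which a few are left out of the text. Other members appear as examples of their role, chosen after their values were seen, as were the added counts of members above WT under other settings. The members and lists were chosen with earlier results of these data known. Roles and lists have no tests of their own. Neither mitochondrially encoded genes nor protein sequences were analysed here.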

Additional observations from a re-analysis of the deposited data

How the results depend on the processing

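The number of the 48 members called, 1 with all libraries, was 4 with upper-quartile scaling (beside 17.9% of all genes called), 12 with library-size scaling (18.9%), 2 with a mean CPM of 5 or more (18.8%), 3 with DESeq2 (21.9%), 23 with limma-voom and sample weights (41.7%), 14 with log2(FPKM + 1) (18.7%) or log2(FPKM + 0.1) (18.4%) and 8 with unfiltered log2(FPKM + 1) (7.54%). The mean CPM filter removed Psmc3ip, and the 2 called there were Psmb4 and Psmb5. The number called was 0 at an adjusted p under 0.01 (2.67%), 15 at 0.10 (28.4%), 0 without Psmc3ip and 0 to 3 with 1 library left out. It was 0 without Srsf1-cKO replicate 2 (2.2% of all genes) or WT replicate 1 (1.84%). It was 3 without WT replicate 2 (18.7%), with Psmb9 and Psme4 beside Psmc3ip. With a replicate block it was 3 (Psmc3ip, Psmd9 and Psmg2; 21.7%). Libraries of the same number correlated at 0.222, 0.0128 and 0.272, not all above 0.1, so the numbers were not taken to pair them, which is not settled. Srsf1-cKO replicates 1 and 3 correlated best with the WT library of their own number, and replicate 2 with WT replicate 1 (0.0585).

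The members' median log2 fold change, 0.31, was positive under each of these settings: 0.41 with library-size scaling, 0.24 with sample weights, 0.39 and 0.40 with FPKM and a pseudocount of 1 and 0.1, 0.39 with unfiltered FPKM, and 0.21 to 0.33 with 1 library left out. The members above WT numbered 28 to 33 over the scalings and left-out libraries, beside 19.9% to 27.2% of all genes. The log2 ratio differences changed sign for Psmb9 to Psmb6 (-0.015 to 0.79 with 1 library left out, negative without WT replicate 3) and for Psmb10 to Psmb7 (-0.13 to 0.21, negative without Srsf1-cKO replicate 3, at -0.10, or WT replicate 1). Among single genes the sign turned for Psmb6 (-0.046 to 0.30 with 1 library left out, negative without Srsf1-cKO replicate 3), Psmf1 (-0.037 to 0.20, negative without WT replicate 3) and Srsf1 (-0.0047 to 0.12, negative without WT replicate 2). Ube3a was at 0.042 with library-size scaling, 0.039 with sample weights, 0.037 with each FPKM setting, and -0.21 to 0.11 with 1 library left out, positive without Srsf1-cKO replicate 3. The cause was not tested. Of the called genes named from the partner, ubiquitin, regulator, interferon and class I lists, Ifng kept its call under each alternative run. The others lost it without Srsf1-cKO replicate 2 or WT replicate 1, where 234 and 195 of all genes were called, against 1923 with all libraries. Some also lost it elsewhere. Irf8 lost its call in 12 settings, Tap1 in 11, Nfe2l2 in 10 and Ipo9 in 9, the threshold of 0.01 included. With 1 library left out, Irf8 had an edgeR adjusted p of 0.0583 to 0.191, so none of those runs called it. With 3 libraries a group the members' median SE was 0.14 on the log2 scale, beside their median log2 fold change of 0.31.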
